A study of Homo sapiens with 10 samples.

Results

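Vehicle-treated T47D cells that express the SUMOylation-deficient progesterone receptor PR-A K388R were compared with vehicle-treated T47D cells that express wild-type (WT) PR-A. The levels compared come from 4 of the 10 arrays of the series, 2 per line, while the spread behind each test was estimated over all 10, and the comparison covered all 12547 probe sets with 1 gene symbol among the 16376 analysed, which stood for 8904 genes. T47D is an established luminal, estrogen receptor-positive human breast cancer cell line, and T47D-Y is a derivative that lacks progesterone receptors (PR). The study transfected T47D-Y cells stably with an expression vector for WT PR-A or for PR-A K388R, in which arginine replaces the lysine that accepts SUMO, and measured RNA on U133 Plus 2 arrays to learn how SUMOylation of PR-A bears on endogenous genes. The 5 groups of 2 arrays were PR-A K388R and WT PR-A cells in ethanol vehicle, PR-A K388R and WT PR-A cells in 10 nM of the synthetic progestin R5020, and T47D-Y cells in vehicle, with 24 h of treatment. Each genotype was 1 stably transfected line, so the mutation and the line that carries it cannot be told apart. The sample labels name DMEM with charcoal-stripped serum and the PicoPure kit, whereas the methods name MEM with fetal bovine serum and another RNA kit. Nothing says that the replicates were separate cultures, so p-values measure only the spread between arrays, which may be technical. No probe set of the PR gene was among those analysed, and the level of receptor RNA in each line was therefore not compared. For PR protein, the study reports a Western blot with similar levels in both lines without R5020.

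PR-A is the shorter of the main PR isoforms, a steroid receptor that binds DNA and regulates transcription after it binds progestin. SUMO is a small protein that is joined to lysines of many transcription factors, where it often dampens their activity, and the K388R exchange removes the main acceptor site of PR. Vehicle cells received no added progestin, so their comparison describes how both lines stood before hormone was given.

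All values are log2 intensities. The array medians lay between 4.59 and 4.69, and Pearson's r over probe sets was 0.9961 to 0.997 between arrays of 1 group and 0.9828 to 0.9855 between PR-A K388R and WT PR-A vehicle arrays. The 7 measured luminal markers were bright in both lines, between 8.34 and 14.2 in the vehicle arrays. KRT18, a keratin of simple and luminal epithelium, averaged 14.16 in PR-A K388R and 14.08 in WT PR-A cells. The 8 leukocyte markers lay between 2.65 and 5.77 and the 6 endothelial markers between 2.62 and 6.14, with none called different. Summed levels moved little, as the mean of the leukocyte list was 4.14 and 4.12 in the PR-A K388R arrays and 3.98 and 4.01 in the WT PR-A arrays. Of the 8 fibroblast markers, COL1A1 was called and is described below. Among 11 reference genes the median difference was 0.02, and 1 was called (YWHAZ, an adaptor protein, 0.63 higher in PR-A K388R on the log2 scale).

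Before any progestin was added, the lines differed at many genes. A probe set was called different at a Benjamini-Hochberg adjusted p under 0.05 in limma and a fold of at least 1.5. Compared with WT PR-A, 392 of the 12547 probe sets (3.12%) had a higher level and 685 (5.46%) a lower level in PR-A K388R cells. With 1 probe set per gene, that with the smallest p, 340 of 8904 genes (3.82%) were higher and 582 (6.54%) were lower. The counts of called members in each gene list are to be read against these shares. Dim genes, which were called less often, are part of them. By the probe set with the highest mean, 8.34% of 887 genes on chromosome 1 were called, against 13.1% of the 512 with a mean above 5. The largest differences were mostly toward lower levels: 28 probe sets were at least 4-fold higher and 72 at least 4-fold lower, and 4 were at least 16-fold higher and 8 at least 16-fold lower. The median difference over all genes was 0.06 on the log2 scale, and the median standard error was 0.13. Without WT PR-A vehicle replicate 1 the counts were 225 higher and 411 lower, and unmoderated contrasts gave 127 and 215.

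**Figure D1:**
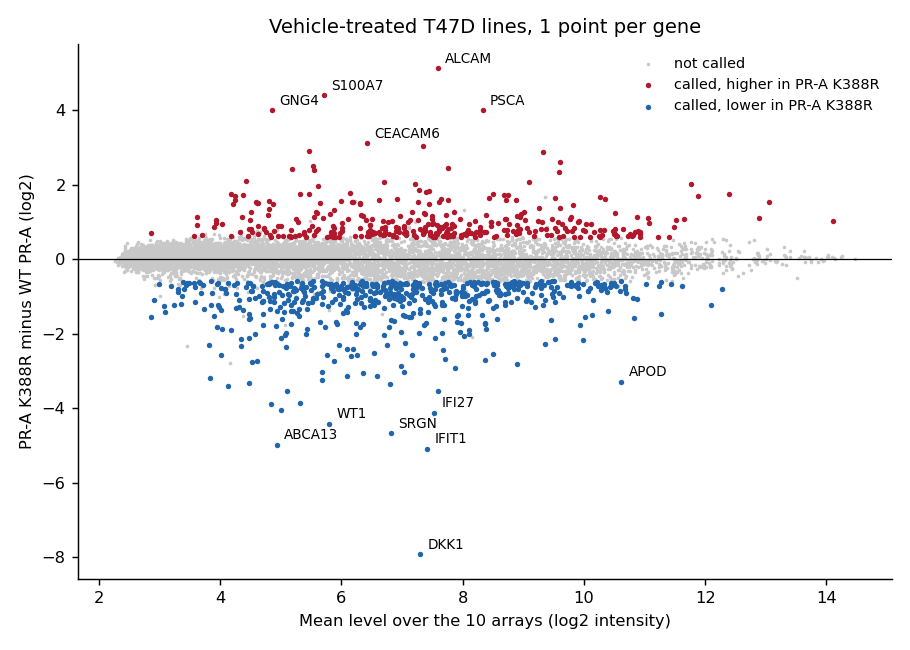
Log2 difference between PR-A K388R and WT PR-A vehicle arrays (vertical axis) against the mean level over the 10 arrays (horizontal axis, log2 intensity), with 1 point per gene and called genes in colour. The 340 called higher genes lie above 0 and the 582 called lower genes below 0, and DKK1 is farthest from 0 at -7.92.

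The list with the largest share of called members was that of interferon-stimulated genes, a set of antiviral genes that cells switch on in response to interferon through short DNA elements near their start sites. Of 29 measured members, 19 were called lower in PR-A K388R and 0 higher, against 6.54% and 3.82% of all genes. Their median difference was -2.10 on the log2 scale, against 0.06 over all genes. As the arrays measure whole lysates, fewer expressing cells and less RNA per cell cannot be told apart here. The elements are shown as background to the list, whose members were picked as genes that respond to interferon. A high share of matches among them follows from that choice and does not bear on the line difference. The windows below come from RefSeq promoters (GRCh38.p14), 5′ to 3′ on the gene's strand, and capitals mark matches to GAAANNGAA on either strand, the core of the interferon-stimulated response element.
IFIT1 (chr10:89392496-89392541, plus strand): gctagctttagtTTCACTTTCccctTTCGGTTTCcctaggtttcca
IFI27 (chr14:94110617-94110661, plus strand): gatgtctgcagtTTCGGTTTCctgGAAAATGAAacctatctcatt
ISG15 (chr1:1013372-1013416, plus strand): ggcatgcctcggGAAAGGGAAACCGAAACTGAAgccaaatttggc
ISG20 (chr15:88638935-88638967, plus strand): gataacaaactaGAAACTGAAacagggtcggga
BST2 (chr19:17405734-17405772, minus strand): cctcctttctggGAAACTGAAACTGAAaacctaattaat
Each promoter entry ran from 250 bases before to 50 bases after the start. Of the 19 lower members, 16 had an entry and 12 of these (75%) held a match. Matches were not counted among the listed members that were not called lower. The same letters were in 8.29% of all 27305 promoters, 7.24% of the 6908 promoters of measured genes, 4.21% of those of genes higher in PR-A K388R (11 of 261) and 6.89% of those of lower genes outside the list (31 of 450). No match was found in the windows of OAS1, XAF1, UBE2L6 and SP100. The hexamer TGTTCT is a part of progesterone response elements, and its matches can overlap those of the other motif. It was in 14.9% of all promoters, 11.2% of those of measured genes, 9.01% of those of lower genes and 8.81% of those of higher genes. It was in 4 of the 16 promoters (25%) of the lower interferon-stimulated genes. A match is a run of letters, not evidence of binding.

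IFIT1, which binds viral RNA, had the lowest value in the list. It stood at 6.85 and 5.34 in PR-A K388R arrays, against 10.50 and 11.87 in WT PR-A arrays and 5.99 and 4.93 in T47D-Y arrays. It was 34.0-fold lower in PR-A K388R than in WT PR-A (limma adjusted p = 0.00823), and WT PR-A was above both other lines in every array. IFI27, a mitochondrial interferon-induced protein, was at 7.39 and 5.57 in PR-A K388R, against 9.96 and 11.24 in WT PR-A and 4.72 and 4.56 in T47D-Y (17.4-fold lower, adjusted p = 0.00723). GBP1, a GTPase that acts on intracellular pathogens, was at 4.59 and 3.97 in PR-A K388R, against 7.87 and 8.38 in WT PR-A and 4.38 and 3.77 in T47D-Y (14.4-fold lower, adjusted p = 0.00109). ISG15 encodes a ubiquitin-like modifier, and its levels of 7.51 and 5.70 in PR-A K388R lay under 9.35 and 10.95 in WT PR-A and around the 6.57 and 5.69 of T47D-Y (11.6-fold lower, adjusted p = 0.0251). In these genes the PR-A K388R and WT PR-A arrays did not overlap, which follows from their choice among the 15 largest lower differences.

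The replicates moved apart within each line for this list. OAS2, which makes the second messenger that activates RNase L, differed by -2.42 (adjusted p = 0.001), IFITM2, which blocks viral entry, by -1.77 (adjusted p = 0.00145), and ISG20, an exonuclease, by -1.70 (adjusted p = 0.00151). The list mean was 7.23 and 6.42 in PR-A K388R vehicle arrays 1 and 2, and 8.33 and 9.39 in WT PR-A vehicle arrays 1 and 2, against 6.79 and 6.22 in T47D-Y arrays. Array 2 was thus the lower in PR-A K388R by 0.80 and the higher in WT PR-A by 1.06. An effect of replicate number had been taken out before deposit, so replicate differences add up to 0 over the 5 groups. That step favours opposite deviations, and the levels of single arrays and the results without 1 array carry it. Without WT PR-A vehicle replicate 2, or without PR-A K388R vehicle replicate 2, the number of lower members was 5, and it was 21 without WT PR-A replicate 1 and 18 without PR-A K388R replicate 1. The list median stayed below 0 in each of these settings, between -2.73 and -1.21. Calls of IFIT1, IFI27, ISG15 and IRF9 were lost without replicate 2 of either line, with adjusted p of 0.0737 to 0.23. In unmoderated contrasts 0 of the 29 members were called.

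The 10 members that were not called included 7 with a lower and 3 with a higher value in PR-A K388R. LAMP3, a lysosomal membrane protein, differed by 0.88 (adjusted p = 0.244), MX2 by 0.09 and HERC6 by 0.00. In R5020 arrays the same list had a median difference of -1.0, with 5 members called lower and 0 higher. In that comparison 6.48% of probe sets were lower and 3.9% higher, which are shares of probe sets and not of genes. The mean of the list was 7.09 and 6.27 in PR-A K388R R5020 arrays, against 7.29 and 8.42 in WT PR-A R5020 arrays.

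**Figure D2:**
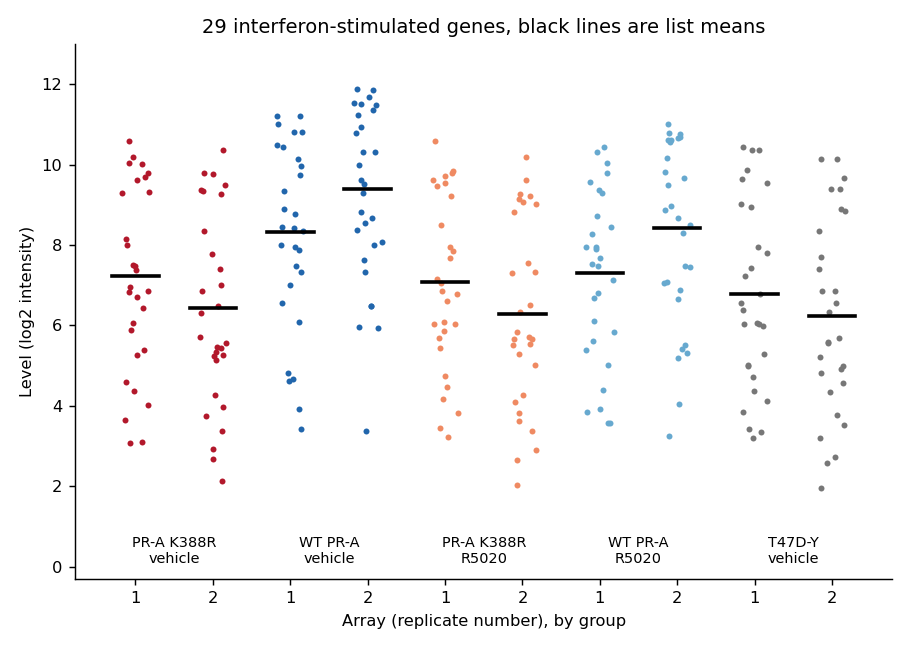
Levels (log2 intensity) of the 29 interferon-stimulated genes in each of the 10 arrays, grouped by line and treatment. Each gene has 1 point, from its probe set with the smallest p. Black lines show the list mean by the probe set with the highest mean, so they need not be the means of the points. The means of 7.23 and 6.42 in PR-A K388R vehicle arrays lie under those of 8.33 and 9.39 in WT PR-A vehicle arrays and near those of 6.79 and 6.22 in T47D-Y.

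Of 15 measured genes that sense or pass on interferon signals, 3 were lower and 1 was higher, against 6.54% and 3.82% of all genes, and the median difference was -0.16. IRF9, a DNA-binding factor of the interferon response, was at 7.61 and 6.75 in PR-A K388R, against 9.78 and 10.39 in WT PR-A and 6.76 and 6.52 in T47D-Y (7.5-fold lower, adjusted p = 0.00773). The receptor chain IFNGR2 and the kinase JAK2 were lower by 0.67 (limma adjusted p = 0.0105) and 0.61 (adjusted p = 0.00941). Only 1 of 3 JAK2 probe sets was called, and the highest differed by -0.05. The receptor chain IFNAR2 was higher by 0.83 (adjusted p = 0.0148). Of 11 genes of MHC class I presentation, 2 were lower and 0 higher. These were TAP1, a peptide transporter, with a difference of -1.14, and PSME1, a proteasome activator subunit, with -1.05. The calls of IFNAR2, IFNGR2 and JAK2 were each lost when a single vehicle array was left out (adjusted p = 0.113 and 0.161 for IFNAR2 without replicate 1 of PR-A K388R or WT PR-A). The lower signalling members numbered 1 without WT PR-A replicate 2 or PR-A K388R replicate 1 and 0 without PR-A K388R replicate 2.

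The gene with the largest difference of all was DKK1, a secreted inhibitor that keeps Wnt ligands from their LRP coreceptors. DKK1 stood at 3.85 and 3.74 in PR-A K388R arrays, under the array medians, against 11.79 and 11.63 in WT PR-A arrays and 5.62 and 5.38 in T47D-Y arrays. The difference was -7.92 (95% interval -8.34 to -7.50, limma adjusted p = 4.43e-08). The other 26 measured Wnt genes were mostly not called. The ligand WNT5A and the receptors ROR2 and FZD1 were lower by 1.39, 1.0 and 0.86, and the corepressor TLE2 was higher by 0.62. With DKK1, 4 members were lower and 1 higher, against 6.54% and 3.82% of all genes. The median difference of the list was 0.05. Only 1 of 2 FZD1 probe sets was called, and the other differed by -0.09. Without WT PR-A replicate 1, and also without WT PR-A replicate 2, 2 Wnt members were lower, and the calls of ROR2 and TLE2 were each lost in 3 of the 4 settings that left out a PR-A vehicle array.

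Several of the other large lower genes were near the floor of the arrays in PR-A K388R and well measured in WT PR-A. ABCA13, a lipid transporter of the ABC family, was at 3.07 and 2.76 in PR-A K388R, against 7.88 and 7.88 in WT PR-A and 3.02 and 3.16 in T47D-Y (31.4-fold lower, adjusted p = 1.09e-07). SRGN, the proteoglycan core protein serglycin, was at 4.20 and 3.88 in PR-A K388R, against 8.61 and 8.81 in WT PR-A and 4.6 and 4.51 in T47D-Y (25.5-fold lower, limma adjusted p = 4.36e-06). Both genes had 2 of 3 probe sets called, and the highest differed by 0.05 for ABCA13 and 0.09 for SRGN. For these genes WT PR-A was the line that stood apart, and PR-A K388R differed from T47D-Y by -0.18 for ABCA13 and -0.52 for SRGN. WT1, a zinc finger transcription factor known from kidney development, was lower in PR-A K388R (4.0 and 3.99) than in WT PR-A (8.13 and 8.67) and in T47D-Y (5.97 and 6.30), a difference of -4.41 between the PR-A lines (adjusted p = 9.01e-06). HNMT, which inactivates histamine, was at 3.97 and 3.34 in PR-A K388R, against 7.52 and 7.56 in WT PR-A (14.8-fold lower, adjusted p = 5.46e-05). Only 1 of its 4 probe sets was called, and the highest of the others differed by 0.39. The remaining members of the 15 largest were PRRG1, PPP4R3C, NUAK1 and DCAF4L2, with differences of -3.54, -3.40, -3.35 and -3.32. Of the 30 largest differences in either direction, 17 had a mean in the lower line under the highest array median, and such folds are limited by the floor of the arrays.

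APOD, a lipocalin and a known target of steroid hormones in breast cells, differed from that pattern. It stood at 8.72 and 8.91 in PR-A K388R arrays, against 12.09 and 12.11 in WT PR-A arrays and 11.82 and 11.66 in T47D-Y arrays. Here PR-A K388R stood apart from both other lines, 9.75-fold under WT PR-A (adjusted p = 6.98e-07). TIMP1, an inhibitor of matrix metalloproteinases, showed the same order, at 8.95 and 9.13 in PR-A K388R, against 11.24 and 11.15 in WT PR-A and 10.63 and 10.48 in T47D-Y (4.45-fold lower, adjusted p = 6.99e-06). ADM, the vasodilator peptide adrenomedullin, was at 5.66 and 5.64 in PR-A K388R, against 8.53 and 8.11 in WT PR-A and 9.78 and 9.60 in T47D-Y (6.35-fold lower, adjusted p = 0.000203).

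The gene with the largest higher level in PR-A K388R was ALCAM, an immunoglobulin-family adhesion molecule of epithelial cells. ALCAM stood at 10.24 and 9.92 in PR-A K388R arrays, against 4.76 and 5.15 in WT PR-A arrays and 6.11 and 6.45 in T47D-Y arrays. The fold was 34.9 (log2 difference 5.13, 95% interval 4.67 to 5.58, limma adjusted p = 1.09e-06). Of its 3 probe sets 2 were called, and the lowest differed by 0.64. GNG4, a G protein gamma subunit, had a like pattern with 7.26 and 7.08 in PR-A K388R, against 3.15 and 3.19 in WT PR-A and 3.64 and 3.89 in T47D-Y (16-fold higher, adjusted p = 2.22e-07). S100A7, the secreted antimicrobial protein psoriasin, was 21.1-fold higher (adjusted p = 0.00149), with 7.54 and 9.05 in PR-A K388R, against 4.48 and 3.31 in WT PR-A and 4.86 and 5.45 in T47D-Y. Its replicates were among the most spread of the large genes.

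In a further group of higher genes it was WT PR-A that stood under both other lines. PSCA, a surface protein anchored by a lipid, was at 10.08 and 9.45 in PR-A K388R, against 5.36 and 6.16 in WT PR-A and 9.42 and 9.69 in T47D-Y (16.1-fold higher than in WT PR-A, adjusted p = 0.000111). CEACAM6, an adhesion molecule of the carcinoembryonic antigen family, was at 8.44 and 7.55 in PR-A K388R, against 4.54 and 5.20 in WT PR-A and 7.30 and 7.81 in T47D-Y (8.68-fold higher, adjusted p = 0.000974). LMO2, a LIM-domain adaptor of transcription complexes, was 8.3-fold higher (adjusted p = 7.05e-05). PR-A K388R differed from T47D-Y by 0.21 for PSCA, 0.44 for CEACAM6 and 0.58 for LMO2. IRS1, the docking protein of insulin and IGF1 receptors, was at 7.35 and 6.18 in PR-A K388R, against 3.66 and 4.04 in WT PR-A and 6.80 and 7.53 in T47D-Y (7.53-fold higher, adjusted p = 0.00248). BAMBI, a decoy receptor for TGF-beta ligands, was at 11.44 and 10.56 in PR-A K388R, against 8.07 and 8.18 in WT PR-A and 10.18 and 10.86 in T47D-Y (7.34-fold higher, adjusted p = 0.00292). The other members of the 15 largest were SKAP2, HSD17B2, ATP6V1B1, ALOX5, ANGPT1, KRT15 and EPAS1, with folds between 4.27 and 6.11. Of these HSD17B2, which oxidises estradiol to estrone, lost its call without any 1 of the 4 vehicle arrays (adjusted p = 0.0708 to 0.132).

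**Figure D3:**
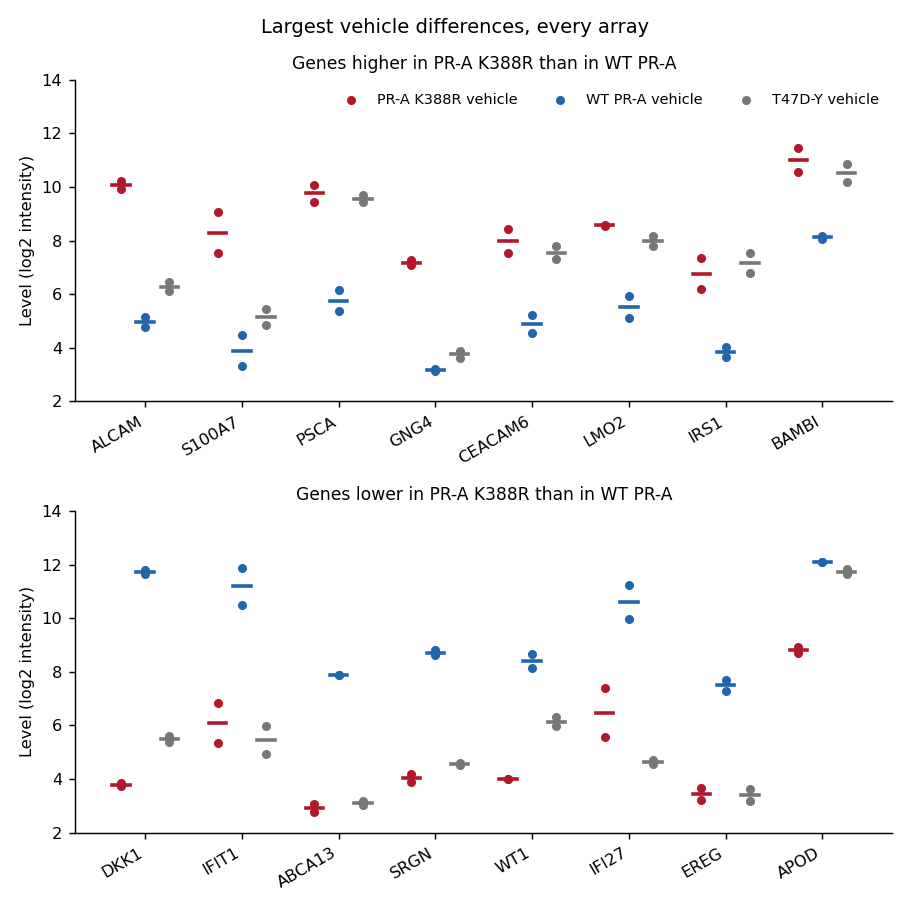
Levels (log2 intensity) in each vehicle array of 8 genes higher (upper panel) and 8 genes lower (lower panel) in PR-A K388R than in WT PR-A, with dots for arrays and short lines for group means of PR-A K388R, WT PR-A and T47D-Y. The 16 genes were chosen among the largest differences, so the lack of overlap between PR-A K388R and WT PR-A arrays follows from that choice. T47D-Y lies near PR-A K388R in some of them, such as PSCA and ABCA13.

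Of 20 measured genes of the estrogen receptor pathway, 2 were higher and 3 lower, against 3.82% and 6.54% of all genes. The other 15 were not called, and the median difference was -0.12. ESR1, which encodes estrogen receptor alpha, was at 9.53 and 9.17 in PR-A K388R, against 8.34 and 8.52 in WT PR-A and 9.74 and 10.11 in T47D-Y. It was 1.89-fold higher in PR-A K388R (adjusted p = 0.0111), and the call was lost without WT PR-A replicate 1 (adjusted p = 0.114) and without PR-A K388R replicate 1 (adjusted p = 0.0989). GREB1, a coactivator that estrogen induces, was at 4.16 and 4.02 in PR-A K388R, against 6.04 and 5.76 in WT PR-A and 4.6 and 4.66 in T47D-Y (3.52-fold lower, adjusted p = 0.000319). TFF3, a secreted trefoil peptide, was lower by 0.95 (adjusted p = 0.000987). The lineage keratin KRT19 was 2.17-fold higher in PR-A K388R (adjusted p = 0.000718), and among 17 luminal lineage genes 2 were higher and 2 were lower. Of 17 basal and mesenchymal genes, 2 were higher and 2 were lower, CDH3 (P-cadherin) by 1.12 and EGFR by -1.11 among them.

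In these cells without added progestin, 2 of 22 measured progestin targets were higher and 3 lower, against 3.82% and 6.54% of all genes, with a median difference of 0.15. S100P, a calcium-binding protein that progestins induce, was at 12.33 and 12.11 in PR-A K388R, against 10.28 and 10.67 in WT PR-A and 12.38 and 12.32 in T47D-Y (3.34-fold higher, adjusted p = 0.000188). PNMT, the enzyme that makes adrenaline, was 2.4-fold higher (adjusted p = 0.00656), with the call lost without replicate 1 of either line (adjusted p = 0.0833 without WT PR-A replicate 1). EGFR, the phosphatase DUSP1 and ANXA1 (annexin A1) were lower by 1.11, 1.06 and 1.04. Only 1 of 4 EGFR and 1 of 2 DUSP1 probe sets was called, and the highest of each differed by 0.505 and 0.09. The ANXA1 call was lost without WT PR-A replicate 2 or either PR-A K388R replicate. Of the other targets that the study named, CEBPD, PDK4, SGK1, NDRG1 and DIO2 were not called, with differences of -0.18, -0.33, 0.17, 0.00 and 0.55, and ALDH1A3 differed by 0.53 (adjusted p = 0.0146), short of the fold of 1.5. The 95% intervals of these 5 reached from -0.92 for PDK4 to 1.15 for DIO2.

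Among 45 measured growth factor genes 10 were lower and 6 higher, against 6.54% and 3.82% of all genes. The median difference was 0.07, with 28 values above 0 and 17 below. EREG, an EGF receptor ligand, was at 3.65 and 3.22 in PR-A K388R, against 7.29 and 7.70 in WT PR-A and 3.62 and 3.17 in T47D-Y (16.6-fold lower, adjusted p = 6.45e-06). Only 1 of its 2 probe sets was called. EGF itself was at 4.63 and 4.59 in PR-A K388R, against 6.97 and 7.38 in WT PR-A and 4.99 and 5.09 in T47D-Y (5.92-fold lower, adjusted p = 1.37e-05). For EGFR, their receptor, 1 probe set of 4 was called, 2.15-fold lower (limma adjusted p = 0.000598), and the highest of the 4 differed by 0.505. These genes were picked from a list with more values above 0 than below, so they do not describe the EGF receptor family as a whole. IGFBP7, a secreted binding protein for insulin-like growth factors, was lower by 3.19. The higher members were IRS1, FGFR3, PDGFA, IGFBP5, EPHB6 and IGFBP2, and without WT PR-A replicate 1 they numbered 3.

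Adhesion and matrix genes had calls in both directions. Of 39 adhesion and junction genes, 5 were higher and 7 lower, against 3.82% and 6.54% of all genes. The integrin chains ITGB1, ITGA6 and ITGA5 were lower by 1.52, 1.24 and 0.97, whereas ITGB4 and ITGB5 were higher by 0.72 and 0.64. Of 46 matrix genes, 6 were lower and 2 higher, and without PR-A K388R replicate 1 the lower ones numbered 3. COL1A1, the alpha chain of type I collagen and a fibroblast marker, was at 7.49 and 7.62 in PR-A K388R, against 9.59 and 9.33 in WT PR-A and 8.74 and 8.53 in T47D-Y (3.73-fold lower, limma adjusted p = 0.000556). Of its 4 probe sets 2 were called, and the highest differed by 0.12. No other of the 8 fibroblast markers was called, and the mean of that list was 4.61 and 4.70 in PR-A K388R arrays and 4.88 and 4.89 in WT PR-A arrays. The matrix protein MATN2 was higher by 1.6 and the inhibitor TIMP2 lower by 1.42.

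Of the 36 chemokine and cytokine genes, 10 were lower and 3 higher, against 6.54% and 3.82% of all genes. CCR7, a chemokine receptor of migrating leukocytes that tumour cells can also express, was at 3.61 and 3.36 in PR-A K388R, against 6.32 and 6.18 in WT PR-A and 3.61 and 3.82 in T47D-Y (6.81-fold lower, adjusted p = 5.46e-05). The interferon-inducible chemokines CCL5 and CXCL10 were lower by 2.13 and 1.74, and the cytokine IL18 was 3.13-fold higher (adjusted p = 0.000144). The lower members numbered 6 without WT PR-A replicate 1, 3 without WT PR-A replicate 2 and 4 without PR-A K388R replicate 2. S100 proteins and annexins, calcium-binding proteins of which many S100 genes lie together on chromosome 1, had 7 higher and 4 lower members of 20. S100A8 and S100A9, which pair as calprotectin, were among the brightest genes of the lines. S100A8 was at 14.18 and 13.92 in PR-A K388R, against 12.47 and 12.53 in WT PR-A (2.93-fold higher, adjusted p = 0.000157), and S100A9 was at 13.13 and 13.13 in PR-A K388R, against 11.6 and 11.27 in WT PR-A (3.23-fold higher, adjusted p = 0.000162). S100A1 was lower by 1.56.

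Calls among metabolic genes were in both directions, and over all genes 3.82% were higher and 6.54% lower. Of 32 hypoxia and glycolysis genes, 5 were higher and 5 lower, and the higher ones numbered 3 without WT PR-A replicate 1 or PR-A K388R replicate 2. EPAS1, the hypoxia-inducible factor HIF-2 alpha, was 5.04-fold higher in PR-A K388R (10.43 and 11, against 8.58 and 8.19 in WT PR-A, adjusted p = 0.000188), and HIF1A was lower by 0.72. The glycolytic genes LDHB and ENO1 were lower by 1.47 and 1.24. Of 27 fatty acid and lipid genes, 4 were higher and 4 lower. DGAT1, which completes triglyceride synthesis, was 3.6-fold higher (adjusted p = 9.62e-06) and APOE, an apolipoprotein, was 3.64-fold lower (adjusted p = 0.000146). Of 12 cholesterol synthesis genes, INSIG1, a brake on that pathway, was called higher by 0.82. The other 11 were not called, but 11 of the 12 values were above 0, and the median of the list was 0.31, against 0.06 over all genes.

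The called members of the cell cycle lists were all lower. Of 37 DNA replication genes 3 were lower, of 31 mitosis genes 2 were lower and of 17 G1 regulators 2 were lower, with 0 higher in each list, against 6.54% lower and 3.82% higher over all genes. The lower shares were thus near or above that over all genes. Of the mitosis genes 27 had a value below 0, with a median of -0.21. In R5020 arrays the median was 0.40 for mitosis and 0.39 for DNA replication genes, with 6 and 9 members called higher and 0 lower. In that comparison 3.9% of probe sets were higher, a share of probe sets and not of genes, so the units differ. The difference between treatments was not tested for these lists. In vehicle GADD45A, a stress-induced growth arrest gene, was the largest, lower by 1.71. In the SUMO pathway, SUMO3 was 1.95-fold higher in PR-A K388R (11.68 and 11.48, against 10.55 and 10.69 in WT PR-A, adjusted p = 0.00114), the ligase PIAS3 was lower by 0.62 and the other 11 measured members were not called. The PIAS3 call was lost without WT PR-A replicate 1 or 2 and without PR-A K388R replicate 2 (adjusted p = 0.0647 to 0.0818). Of 22 nuclear receptors, ESR1 was higher and VDR lower, and of 30 coregulators, KAT2B was higher by 0.61 and HDAC4 lower by 1.07. Only 1 of 2 HDAC4 probe sets was called, and the other differed by 0.199. The KAT2B call was lost without WT PR-A replicate 1 (adjusted p = 0.392) or either PR-A K388R replicate, and that of VDR without WT PR-A replicate 1 (adjusted p = 0.0568). PRKAR2B, a regulatory subunit of protein kinase A, was at 7.03 and 7.53 in PR-A K388R, against 10.02 and 9.95 in WT PR-A and 7.37 and 7.06 in T47D-Y (6.55-fold lower, adjusted p = 1.77e-05). Of 27 protein kinase A and cyclic nucleotide genes, 2 were higher and 2 lower. Of 7 measured cancer-testis antigens, MAGEC1 and PRAME were lower by 2.0 and 1.5. TGF-beta and BMP genes had 2 higher and 4 lower members of 27, with BAMBI the largest and the inhibitor SMAD7 lower by 1.09. Apoptosis genes had 2 higher and 4 lower of 26, among them the BH3 protein BID, higher by 1.22, and the survival protein MCL1, lower by 1.28. Of 23 genes of the unfolded protein response 1 was higher and 2 lower, and of 40 steroid and xenobiotic genes 4 were higher and 2 lower. Of 5 genes on the metallothionein list, which includes the transcription factor MTF1, MT1X was lower by 0.70. All vehicle counts of this paragraph are to be read against the shares of 6.54% lower and 3.82% higher given at its start.

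**Figure D4:**
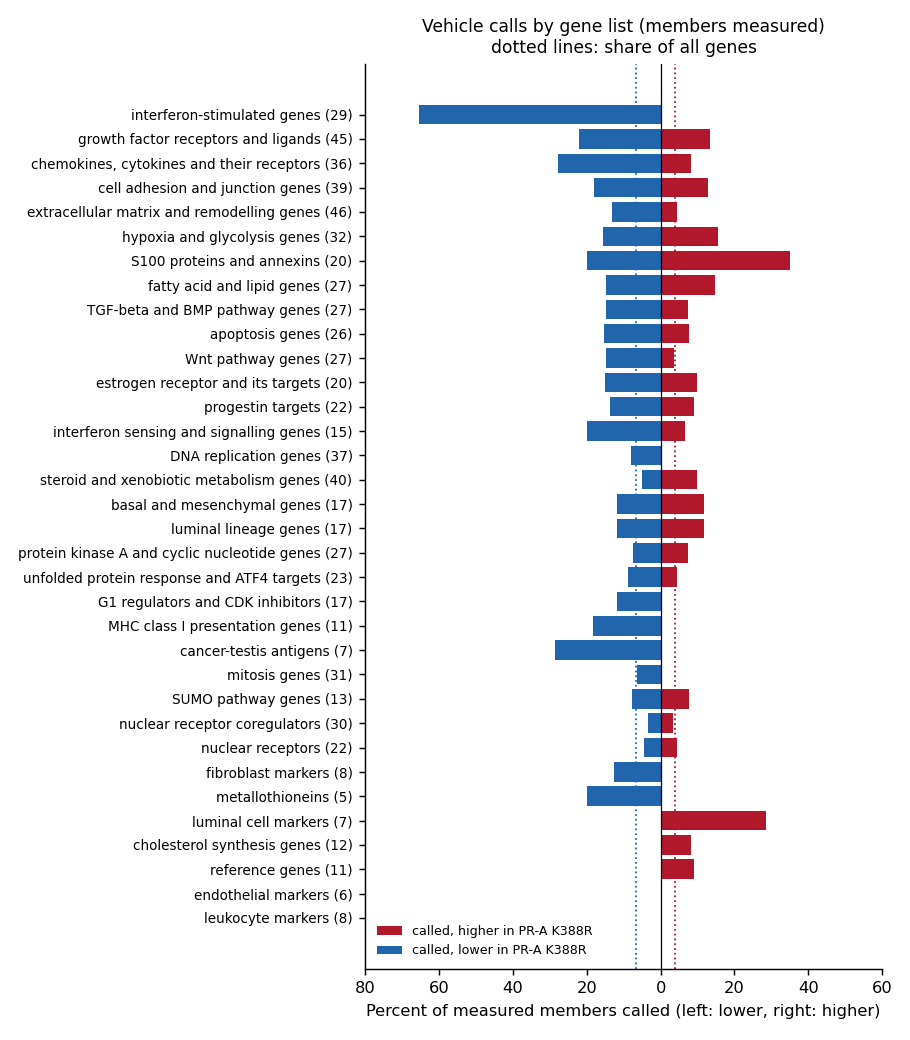
Percent of the measured members of each gene list that were called lower (bars to the left) or higher (bars to the right) in PR-A K388R than in WT PR-A vehicle arrays, with the number measured in brackets and dotted lines at 6.54% and 3.82%, the shares over all genes. The interferon-stimulated list has the longest bar, with 19 of 29 members lower.

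The same lines were also compared in R5020. Those levels come from other arrays, but both comparisons were fitted in 1 model and share its estimate of the spread. In R5020 PR-A K388R had a higher level at 489 probe sets (3.9%) and a lower level at 813 (6.48%). Of those higher in vehicle 58.2% were also higher in R5020, and these 228 made up 46.6% of those higher in R5020. Of those lower in vehicle 53.3% were also lower in R5020, and these 365 made up 44.9% of those lower in R5020, while 11 probe sets were called in opposite directions. Of the 30 genes with the largest vehicle differences, 26 were also called in the same direction in R5020. DKK1 differed by -7.82 and ALCAM by 5.95 in R5020 arrays, close to their vehicle values. A test of the difference between both line differences called 214 probe sets (1.71%), of which 96 had also been called in vehicle. ANXA1 differed by -1.04 in vehicle and -3.59 in R5020 (adjusted p = 0.00463 for the difference), and GREB1 by -1.81 and -3.34 (adjusted p = 0.0277). S100P differed by 1.74 in vehicle and -0.10 in R5020 (adjusted p = 0.00723), and PRKAR2B by -2.71 and -0.61 (adjusted p = 0.00568). The count of 214 fell to between 61 and 145 when 1 array was left out, and in unmoderated contrasts it was 0.

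Called genes were not spread evenly over the chromosomes. With the brightest probe set of each gene, 812 of 8904 genes (9.12%) were called in vehicle. On chromosome 14 the share was 22.8% of 268 genes (31 higher, 30 lower) and on chromosome 7 it was 20% of 424 genes (36 higher, 49 lower), whereas on the other chromosomes it lay between 3.61% and 13.1%. In some stretches of these chromosomes nearly all called genes had 1 direction, whereas in others both directions were found. SKAP2 (2.61) lay between GSDME (-1.21) and CREB5 (-0.89) on chromosome 7, and TTC6 (1.52) lay among genes with lower values on chromosome 14. Among 8318 runs of 25 neighbouring measured genes, 59 overlapping runs had a median of at least 0.4 either way, 49 on chromosome 7 and 10 on chromosome 14.

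On chromosome 7 the run from FAM131B to FASTK had a median difference of 0.66 in vehicle and 0.72 in R5020. Of its 25 genes 24 were above 0 and 13 were called higher, among them the histone methyltransferase EZH2 (0.80), the kinase CDK5 (0.83) and the adhesion protein ZYX (1.09), which were chosen after their values were seen. The median of this run was 6.50 and 6.62 in PR-A K388R arrays, against 5.76 and 5.67 in WT PR-A arrays. The run from CDK14 to PDAP1 was lower, with a median of -0.59 in vehicle and -0.50 in R5020 and 12 genes called lower, FZD1 among them. On chromosome 14 the run from SNORD8 to RABGGTA had a median of -0.65 in vehicle and -0.69 in R5020, with 13 genes called lower and DHRS2 called higher (0.88). IRF9, PSME1 and BCL2L2 lay in that run, at -2.91, -1.05 and -1.06, and the arginine methyltransferase PRMT5 at -0.65. The run from WDHD1 to KCNH5, with HIF1A and the mitotic gene DLGAP5, had a median of -0.49 in vehicle and -0.28 in R5020 and 7 genes called lower. Farther along chromosome 14 the run from PAPOLA-DT to ASPG had a median of 0.39 with 7 genes called higher, including TNFAIP2 (1.6) and WARS1 (0.80). IFI27, which precedes that run on chromosome 14, was lower by 4.12.

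Against T47D-Y, the line that stood apart was not the same in every run. In the run from FAM131B to FASTK the median difference from T47D-Y was 0.53 for PR-A K388R and -0.04 for WT PR-A. In the run from SNORD8 to RABGGTA it was 0.08 for PR-A K388R and 0.66 for WT PR-A, and in that from CDK14 to PDAP1 it was 0.12 for PR-A K388R and 0.59 for WT PR-A. These values share the T47D-Y arrays.

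**Figure D5:**
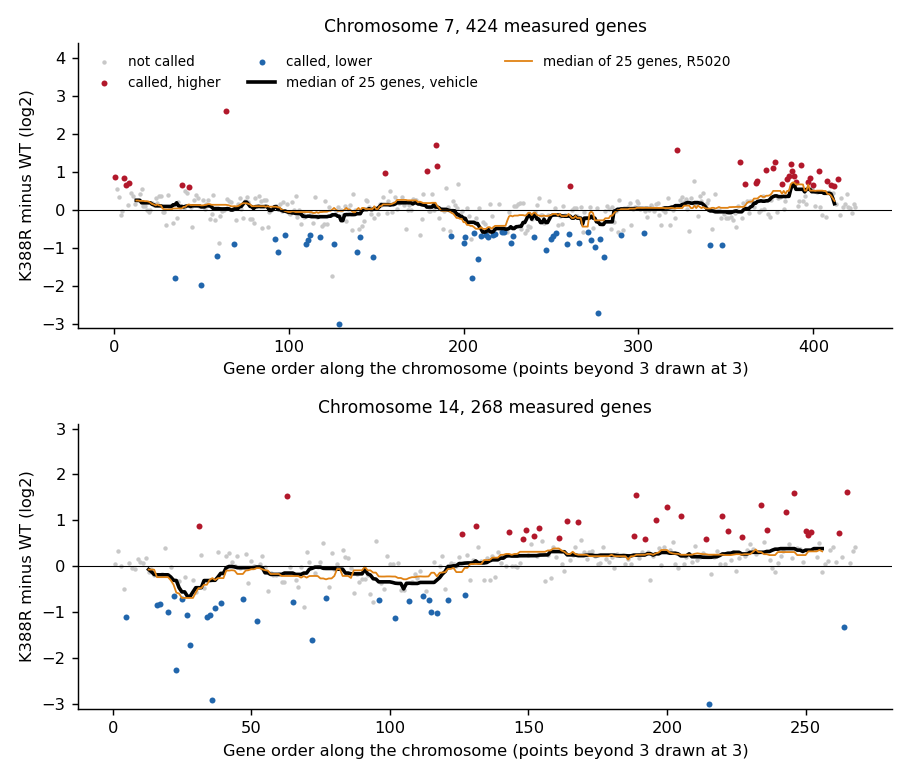
Log2 difference between PR-A K388R and WT PR-A vehicle arrays for each measured gene of chromosome 7 (424 genes) and chromosome 14 (268 genes) in gene order, with called genes in colour and running medians of 25 genes for vehicle (black) and R5020 (orange). The running medians reach 0.66 near the end of chromosome 7 and -0.65 near the start of chromosome 14. In these 25-gene stretches the R5020 medians are 0.72 and -0.69. Elsewhere the lines lie farther apart, as from WDHD1 to KCNH5 on chromosome 14 (-0.49 in vehicle and -0.28 in R5020).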

How the data were processed

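RNA of 10 samples, 2 in each of 5 groups taken from the sample labels, was measured on U133 Plus 2 arrays. The deposited values are log2 intensities per probe set, normalized by the authors in Partek; neither the normalization nor the background correction is given in the sources used here. Of 16376 probe sets analysed, 12547 had 1 symbol in the platform annotation, 457 had several and 3372 were not listed, and 12528 matched a RefSeq gene (GRCh38.p14). Replicate differences added up to 0 across the 5 groups at each probe set (largest absolute sum 0.0003), so an effect of replicate number had been taken out before deposit. The model in limma 3.58.1 under R 4.3.3 used every array, a mean for each group and a block for replicate number, with 4 residual and 5.62 prior degrees of freedom. Benjamini-Hochberg adjustment covered all 16376 probe sets. The number of arrays limits the precision.

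Genes named are the 15 largest called differences in each direction, up to 4 called members of each of 34 lists (those with the smallest adjusted p, or the largest differences where none was called) and genes the study names, each by its probe set with the smallest p. Other named genes were chosen after their values were seen. The members and lists were chosen with earlier results of these data known. In simulated data for the vehicle comparison on 16376 probe sets, 26% of 1.5-fold, 72% of 2-fold, 94% of 3-fold and 96% of 4-fold changes (50 each) were recovered, with 6 false calls. Promoter matches were counted on both strands, and runs of genes were described without a test, from the probe set with the highest mean. The mean levels and level ranges of lists also came from that probe set, whereas their counts and median differences came from that with the smallest p. Alternatives were no replicate block, the compared groups alone, quantile normalization, an intensity trend, unmoderated contrasts, arrays centred on their medians, leaving out the dimmest 40%, 1 probe set per gene, a fold of at least 2 and leaving out each array. A setting of the runs with genes of a mean above 5 was chosen after seeing the data. Figures were drawn with matplotlib 3.10.9.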

Additional observations from a re-analysis of the deposited data

Results flagged for a closer look

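For 19 of the 125 named genes the difference between PR-A K388R and WT PR-A was not the same in R5020 as in vehicle arrays, by limma's test of that difference (adjusted p under 0.05 and at least 1.5-fold). The values below are the R5020 difference minus the vehicle difference on the log2 scale. The line difference lay farther to the negative side in R5020 for ANXA1 (-2.55), ABCA1 (-1.85), PDK4 (-1.84), S100P (-1.84), CEBPD (-1.83), SRGN (-1.80), MT1X (-1.57), KAT2B (-1.57), GREB1 (-1.53), DUSP1 (-1.41) and JAK2 (-1.02). It lay farther to the positive side for PRKAR2B (2.10), HNMT (2.07), WT1 (1.95), PRAME (1.32), ITGA5 (1.11), RRM2 (0.98), TFAP2A (0.97) and PIAS3 (0.84). KAT2B, a histone acetyltransferase, was the one whose called direction differed, with 0.61 in vehicle and -0.95 in R5020. CEBPD and PDK4 were called in R5020 arrays (-2.02 and -2.17) and not in vehicle arrays (-0.18 and -0.33).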

How the results depend on the processing

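None of the 115 named calls changed direction in any alternative. This does not cover named genes that were not called, such as NDRG1 with a difference of 0.005. Of the named calls 55 were lost in unmoderated contrasts and 38 at a fold of at least 2. Calls were also lost without 1 of the 4 PR-A vehicle arrays. Counts of probe sets higher and lower were 392 and 685 in vehicle, 489 and 813 in R5020, and 228 and 365 in both. Unmoderated contrasts gave 127 and 215, 233 and 355, and 84 and 111. At 2-fold or more the counts were 144 and 283, 173 and 336, and 88 and 131. Without 1 array they ranged from 225 to 403 and 411 to 714 in vehicle, 393 to 513 and 577 to 816 in R5020, and 156 to 222 and 246 to 369 in both, with the lowest vehicle counts without WT PR-A vehicle replicate 1. The 214 differences between vehicle and R5020 became 469 with no replicate block, 395 with an intensity trend, 139 with the compared groups alone, 61 to 145 without 1 array, and 0 in unmoderated contrasts (612 at an unadjusted p under 0.05 and 1.5-fold). With no replicate block the vehicle counts were 406 and 725, and that fit counts 1 residual degree of freedom too many. Same-numbered vehicle arrays of both lines deviated in opposite ways (r = -0.34), which the removal of the replicate number favours, so the numbers were not read as paired cultures. The share of vehicle calls that were higher was 36.4%, 44.1% after quantile normalization and 29.1% with arrays centred on medians. Among genes with a mean above 5, a setting chosen after seeing the data, runs of 25 genes with a median of at least 0.4 either way numbered 137, 72 on chromosome 7 and 65 on chromosome 14, and the highest, from MKRN1 to NUB1, reached 0.75. In the simulated data 1.5-fold changes were often missed, but a call itself required an estimated fold of at least 1.5. The share missed therefore does not measure the effect of the number of arrays. Folds of genes near the floor of the arrays are limited by that floor.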
